A study of Sus scrofa with 13 samples.

Results

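The genes described here encode proteins of the neuronal synapse and of neuronal adhesion, most of them known for very long introns, and were followed through a 5-hydroxymethylcytosine (5hmC) survey of fat-derived stromal cells. They were chosen by symbol from a list of 36, of which 35 have a row among the 27339 genes of the count tables; NLGN2 has none. 5hmC is the oxidised form of DNA methylation made by the TET enzymes. Fragments carrying it were pulled down with an antibody and sequenced. The cells were mesenchymal stem cells grown out of the abdominal fat of female domestic pigs fed a high-cholesterol diet, taken 3 weeks after a coil had narrowed 1 renal artery; diet and stenosis were thus shared by both groups. The 6 hypoxia libraries came from cells held at 1% oxygen for 48 hours, and the 6 normoxia libraries from cells held at 20% oxygen. Each group has 1 library for each of the numbers 110, 16, 21, 33, 49 and 4 that open the sample titles. The labels do not say whether a number stands for 1 pig, so the spread between libraries may be technical.

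At a synapse, SNARE proteins and calcium sensors fuse transmitter vesicles with the presynaptic membrane, neurexins bind partners such as neuroligins across the cleft, and scaffold proteins hold glutamate and GABA receptors opposite the release site. Contactins, IgLON proteins and CUB-sushi proteins act in neuronal adhesion and in shaping contacts. Most of these genes are characteristic of neurons and are not markers of stromal cells. 5hmC is abundant in the bodies of transcribed genes, and brain is the tissue best known for it. A read on a gene here is a fragment of captured DNA and not a transcript, so marker genes cannot check the cell type in these files.

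Sequencing depth ran from 15569948 to 27428482 reads in a library's table, and 1.69 to 2.89% of these lay in genes. The 35 synaptic genes together received 821 to 1652 reads per library. Normoxia 21 stood apart from the other 11 libraries: it had the fewest gene reads (263578), the lowest share of reads in genes (1.69%), the highest share set aside for low alignment quality (10.3%), and the fewest (104718) and widest (median 556 bases) peaks. Levels are given as CPM, counts scaled to each library's reads in tested genes with edgeR's TMM method. They are not divided by gene length, so the levels of different genes are not ranked here. Fewer cells carrying 5hmC at a gene and less 5hmC per cell cannot be told apart in such bulk samples.

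The depth at single genes was low. GRIN2B had 2712 reads over the 12 libraries, DLG2 1799 and SYT1 1079, and these were the highest totals. The fewest were on DPP6 (31), CNTNAP2 (66) and NTM (68). DPP6, an auxiliary subunit of Kv4 potassium channels, had 0 to 5 reads per library, and its 0 in hypoxia 110 allows a level of up to 7.43 CPM (3 counts, counting error only). CNTNAP2, a contactin-associated protein of axons, had 2 to 12 reads per library, and NTM, the IgLON protein neurotrimin, 3 to 11. The coefficient of variation that counting alone gives ranged from 6.65% for GRIN2B to 62.2% for DPP6, with a median of 25.6%, beside a median of 39.5% measured over the 12 libraries. For 13 of the 35 genes the measured value was under 1.5 times the counting value.

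**Figure D1:**
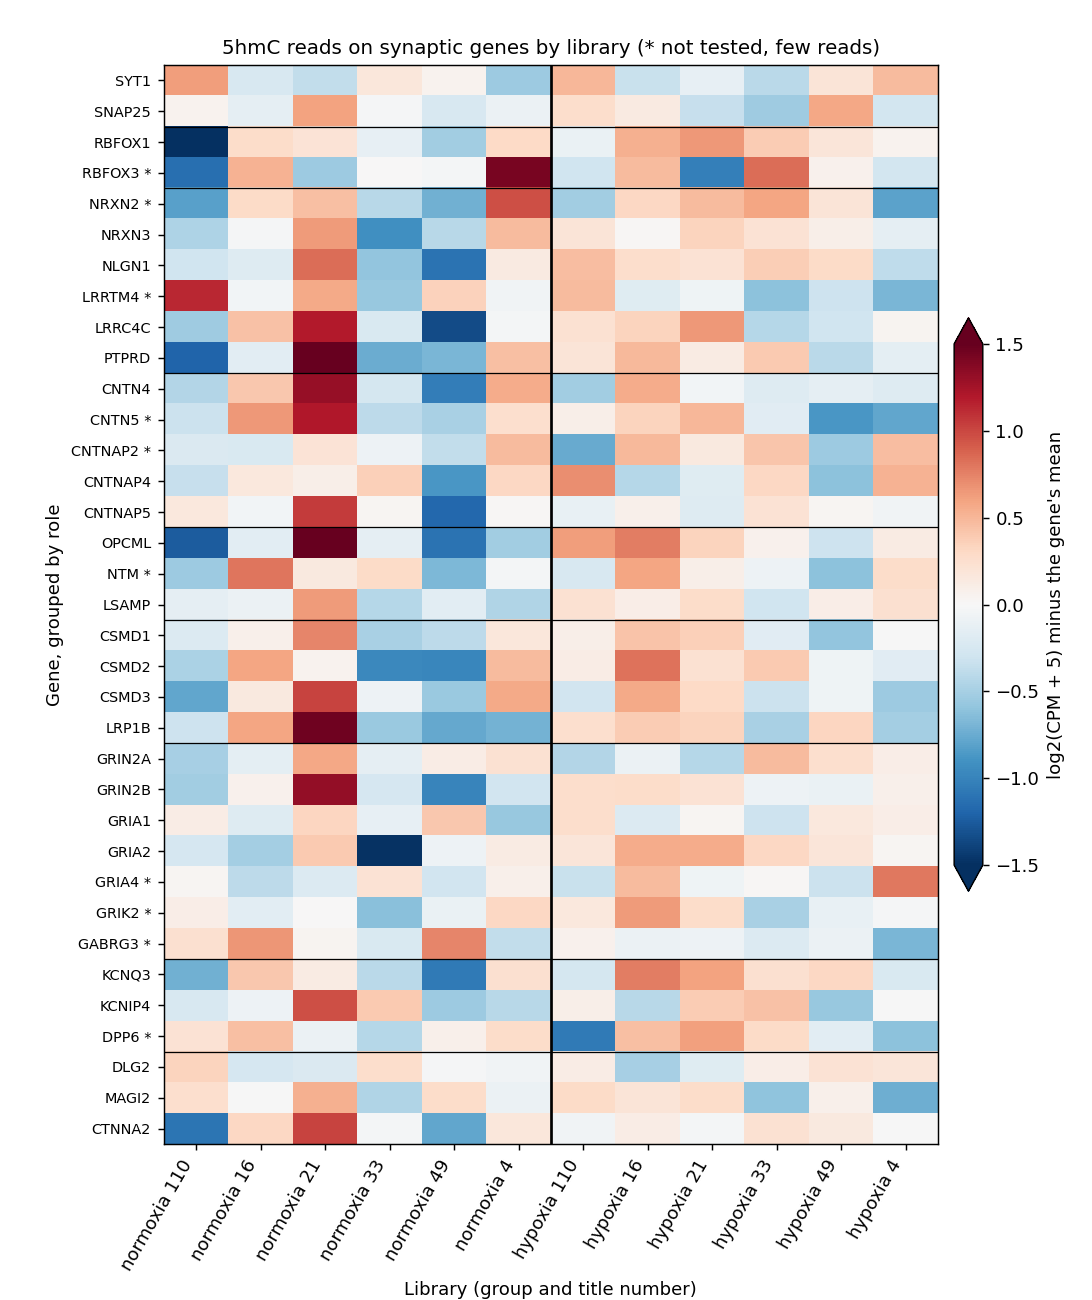
Each row is 1 of the 35 synaptic genes, grouped by role, and each column 1 library; colour gives log2(CPM + 5) minus the gene's mean over the 12 libraries, and an asterisk marks the 10 genes with too few reads to be tested. The normoxia 21 column holds the highest CPM of 18 of the 35 genes, and the normoxia 49 and normoxia 110 columns hold the lowest of 10 and 8.

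Hypoxia was compared with normoxia within title numbers, to see where low oxygen altered the 5hmC signal. No synaptic gene passed the test. Of the 35, 25 passed the filter on low counts, and 0 of these 25 passed edgeR's quasi-likelihood test with the title number as a block after Benjamini-Hochberg adjustment over all 11868 tested genes, of which 0.0337% passed. The lowest adjusted p of a synaptic gene was 0.703, for GRIA2. At an unadjusted p under 0.05 there were also 0 of 25, beside 7.09% of all tested genes (2.60% higher and 4.49% lower in hypoxia); DESeq2's Wald test with the same block called 0 and had 0 at that unadjusted p as well. In no gene of the 25 did the 2 groups separate without overlap, as 0.101% of all tested genes did. Without the block, 0 of 25 and 0% of all tested genes passed, and 0 of 25 had an unadjusted p under 0.05, beside 2.73% of all tested genes.

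The log2 fold changes of the tested synaptic genes leaned to the hypoxia side, with 17 of 25 above 0 and a median of 0.11. Over all tested genes, 46.6% were above 0 and the median was -0.02. The synaptic genes with too few reads to be tested were split in the fit with no count filter. LRRTM4 (-0.63), GABRG3 (-0.45), CNTN5 (-0.40), DPP6 (-0.31) and RBFOX3 (-0.20) were below 0. GRIA4 (0.29), GRIK2 (0.18), CNTNAP2 (0.15), NRXN2 (0.03) and NTM (0.03) were above 0. With library size as the only scaling, 22 of the 25 and 54.7% of all tested genes were above 0. Without the block, 16 of 25 were above 0 and the median was 0.04, beside 43.4% and -0.04 over all tested genes. Libraries were run on 2 sequencing lanes, named in the files. Within lane 7, which holds numbers 110, 16, 21 and 33, the median was -0.01 with 12 of 25 above 0. All tested genes had a median of -0.02 there, with 47.0% above 0. Within lane 8, with numbers 49 and 4, the median of the 25 genes was 0.31 with 19 above 0. All tested genes had a median of 0.01 there, with 51.3% above 0.

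The title numbers did not move together. The median log2 difference in CPM of the 25 genes, hypoxia minus normoxia, was 0.55 for number 110, 0.54 for 49, 0.20 for 16 and 0.18 for 33. It was -0.13 for number 4 and -0.59 for number 21. The hypoxia library was the higher in 21 of 25 genes for 110 and for 49, in 18 for 16, in 17 for 33, in 10 for 4 and in 6 for 21. All tested genes had medians between -0.08 and 0.02 within the same numbers.

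**Figure D2:**
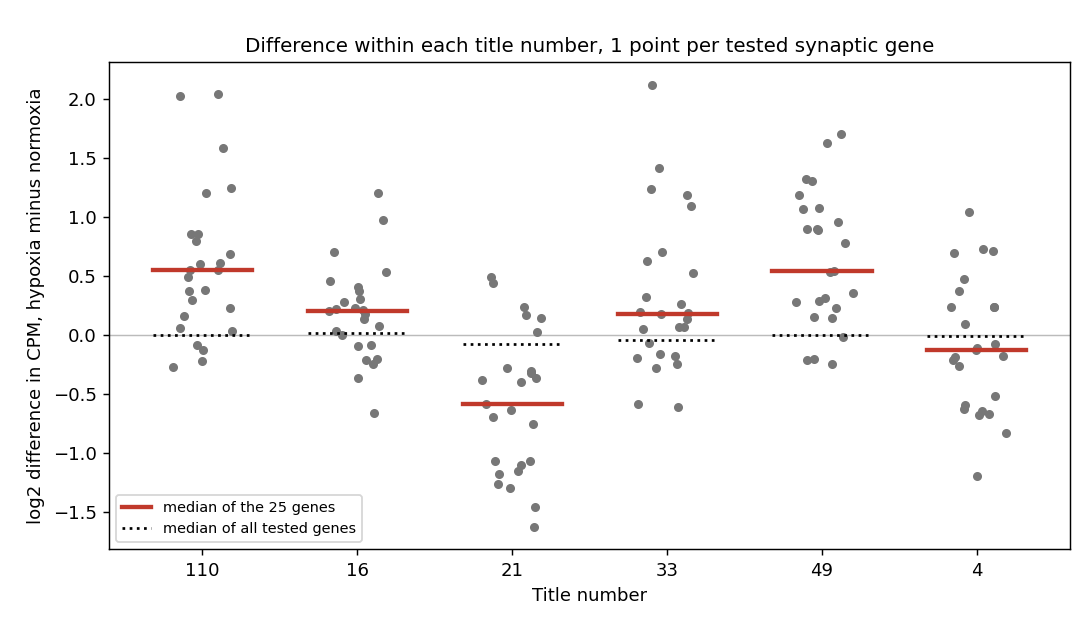
Each point is 1 of the 25 tested synaptic genes; the vertical axis is its log2 difference in CPM between the hypoxia and the normoxia library of a title number (horizontal axis), with red bars for the median of the 25 genes and dotted bars for that of all tested genes. The red bars range from -0.59 for number 21 to 0.55 for number 110, while the dotted bars stay near 0.

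Of the release machinery, SYT1 encodes the calcium sensor of vesicle fusion and SNAP25 a SNARE protein of the presynaptic membrane. SYT1 ranged from 150 to 285 CPM in hypoxia (median 207) and from 136 to 311 in normoxia (median 188). The ranges overlapped nearly throughout, and the log2 fold change was 0.11 ± 0.193 (SE), positive in 3 of 6 numbers. SNAP25 averaged 36.9 ± 12.6 CPM (SD) over the 6 hypoxia libraries and 38.1 ± 10.1 over the 6 normoxia libraries. Its log2 fold change of -0.02 ± 0.285 turned to 0.03 with library size as the only scaling, so neither gene leaned to a side.

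The RBFOX proteins are neuronal regulators of alternative splicing. RBFOX1 ranged from 42.1 to 74.1 CPM in hypoxia (median 56.3) and from 9.495 to 57.0 in normoxia (median 47.2). Its lowest library was normoxia 110, with 4 reads, and the groups overlapped between 42.1 and 57.0 CPM. The hypoxia library was higher in 5 of 6 numbers, with a log2 fold change of 0.51 ± 0.263 (SE; edgeR adjusted p 0.711). RBFOX3, the antigen known as NeuN, was not tested; it had 2 to 34 reads per library, and its CPM averaged 17.6 ± 9.92 (SD) over the 6 hypoxia libraries and 20.8 ± 17.0 over the 6 normoxia libraries.

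Among neurexins and their trans-synaptic partners, 4 genes were tested and all 4 had positive log2 fold changes that did not pass. PTPRD was at -0.01 without the block. NRXN3, a presynaptic neurexin, ranged from 94.4 to 132 CPM in hypoxia (median 115) and from 52.3 to 164 in normoxia (median 89.5). The hypoxia values lay inside the normoxia range, and the log2 fold change was 0.21 ± 0.218 (SE). NLGN1, the neuroligin of excitatory synapses, ranged from 20.0 to 39.6 CPM in hypoxia (median 34.4) and from 10.0 to 53.1 in normoxia (median 22.4), with a log2 fold change of 0.44 ± 0.325. Normoxia 21 was the highest library for both genes; without number 21 the log2 fold changes were 0.31 for NRXN3 and 0.66 for NLGN1. LRRC4C, the netrin-G ligand NGL-1, and PTPRD, a receptor phosphatase that organises presynaptic sites, had log2 fold changes of 0.15 and 0.13. NRXN2, with 3 to 24 reads, and LRRTM4, a postsynaptic partner of presynaptic heparan sulfate proteoglycans, with 3 to 16, were not tested. LRRTM4 was the lower in hypoxia in 6 of 6 numbers, as 2.56% of all tested genes were (12.4 ± 5.47 CPM against 19.7 ± 10.5; SD, n = 6 each), and with no count filter its log2 fold change was -0.63 ± 0.404 (SE) and did not pass (edgeR unadjusted p 0.118).

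Contactins are adhesion proteins anchored on axons, and the CNTNAP proteins are their membrane-spanning partners. Of the 3 tested, CNTNAP4 had a log2 fold change of 0.17 ± 0.320 (SE), CNTNAP5 -0.02 ± 0.250 and CNTN4 -0.25 ± 0.302. CNTNAP5 turned to 0.03 with library size as the only scaling. CNTN4 averaged 32.8 ± 10.3 CPM (SD) over the 6 hypoxia libraries and 42.7 ± 28.03 over the 6 normoxia libraries, where normoxia 21 alone stood at 91.8. Without number 21 its log2 fold change was 0.0043. CNTN5, with 3 to 13 reads per library, was not tested.

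The IgLON proteins OPCML and LSAMP guide neuronal adhesion from the outer membrane, and both were highest in normoxia 21. OPCML ranged from 45.6 to 102 CPM in hypoxia (median 68.8) and from 21.4 to 179 in normoxia (median 45.0). The 179 was normoxia 21; the other 5 normoxia libraries lay between 21.4 and 52.3 CPM and overlapped the hypoxia range only from 45.6 upwards. Its log2 fold change was 0.53 ± 0.284 (SE) with all numbers (edgeR adjusted p 0.717), and 0.95 ± 0.252 without number 21, with an unadjusted p of 0.000525 and an adjusted p of 0.167. LSAMP ranged from 76.1 to 115 CPM in hypoxia (median 107) and from 67.8 to 150 in normoxia (median 84.8), a log2 fold change of 0.24 ± 0.200. Apart from normoxia 21, the 5 normoxia libraries reached 88.8 CPM.

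The CUB-sushi genes encode large membrane proteins related to complement regulators, and LRP1B a large endocytic receptor. CSMD2 ranged from 94.4 to 192 CPM in hypoxia (median 121) and from 52.1 to 164 in normoxia (median 93.5). The hypoxia library was higher in 5 of 6 numbers, number 4 being the exception, with a log2 fold change of 0.41 ± 0.222 (SE; edgeR adjusted p 0.719). CSMD1 (0.03), CSMD3 (-0.16) and LRP1B (0.08) had smaller log2 fold changes. LRP1B stood at 150 CPM in normoxia 21 and at 28.1 to 79.4 in the other normoxia libraries, and was at -0.03 without the block.

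Of the receptor subunits, GRIA1 and GRIA2 form AMPA receptors, GRIN2A and GRIN2B NMDA receptors and GRIK2 kainate receptors, all gated by glutamate, and GABRG3 belongs to GABA-A receptors. GRIA2 had the smallest p of the 25 genes. It ranged from 32.7 to 49.4 CPM in hypoxia (median 39.1) and from 8.26 to 43.5 in normoxia (median 28.1), a log2 fold change of 0.60 ± 0.300 (SE). The groups overlapped between 32.7 and 43.5 CPM; the low value was 3 reads in normoxia 33, and the hypoxia library was higher in 5 of 6 numbers. GRIN2B ranged from 491 to 640 CPM in hypoxia (median 584) and from 263 to 1318 in normoxia (median 437). Normoxia 21 held 273 reads of GRIN2B and the 1318 CPM; the other normoxia libraries ended at 554, and the 2 groups then overlapped only between 491 and 554. The log2 fold change was 0.23 ± 0.202, and 0.49 ± 0.169 without number 21, with an unadjusted p of 0.00551 and an edgeR adjusted p of 0.301; without the block it was 0.04, and -0.10 when normoxia 49 was also left out. GRIA1 (0.03 ± 0.185) and GRIN2A (-0.02 ± 0.221) showed no lean, and GRIN2A turned to 0.03 with library size as the only scaling. GRIA4, GRIK2 and GABRG3 were not tested. GABRG3 averaged 20.4 ± 4.12 CPM (SD) over the 6 hypoxia libraries and 28.4 ± 10.5 over the 6 normoxia libraries. With 0.5 reads added it was the lower in hypoxia in 6 of 6 numbers, beside the same 2.56% of tested genes. Without that addition number 33 was slightly higher in hypoxia (19.5 CPM against 19.3). With no count filter the log2 fold change of GABRG3 was -0.45 ± 0.332 (SE) and did not pass (edgeR unadjusted p 0.175).

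KCNQ3, a subunit of the M-current potassium channel, ranged from 24.8 to 55.6 CPM in hypoxia (median 38.1) and from 12.03 to 42.0 in normoxia (median 27.9). The ranges shared most of their span, and the log2 fold change was 0.49 ± 0.300 (SE; edgeR adjusted p 0.787), positive in 5 of 6 numbers. KCNIP4, which binds Kv4 channels, was at -0.01 ± 0.285 and turned to 0.05 with library size and to 0.03 with all reads as the scaling. Among the scaffolds, DLG2 anchors NMDA receptors, MAGI2 binds neuroligins and receptors, and CTNNA2 is the neuronal alpha-catenin. DLG2 ranged from 238 to 393 CPM in hypoxia (median 364) and from 283 to 427 in normoxia (median 331), a log2 fold change of -0.02 ± 0.168 that turned to 0.04 with library size as the only scaling. MAGI2 was the 1 gene of the 10 with the smallest p with a negative log2 fold change. It ranged from 67.1 to 141 CPM there (median 127) and from 82.6 to 169 in normoxia (median 126), a log2 fold change of -0.18 ± 0.189. CTNNA2 was at 0.11 ± 0.307.

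**Figure D3:**
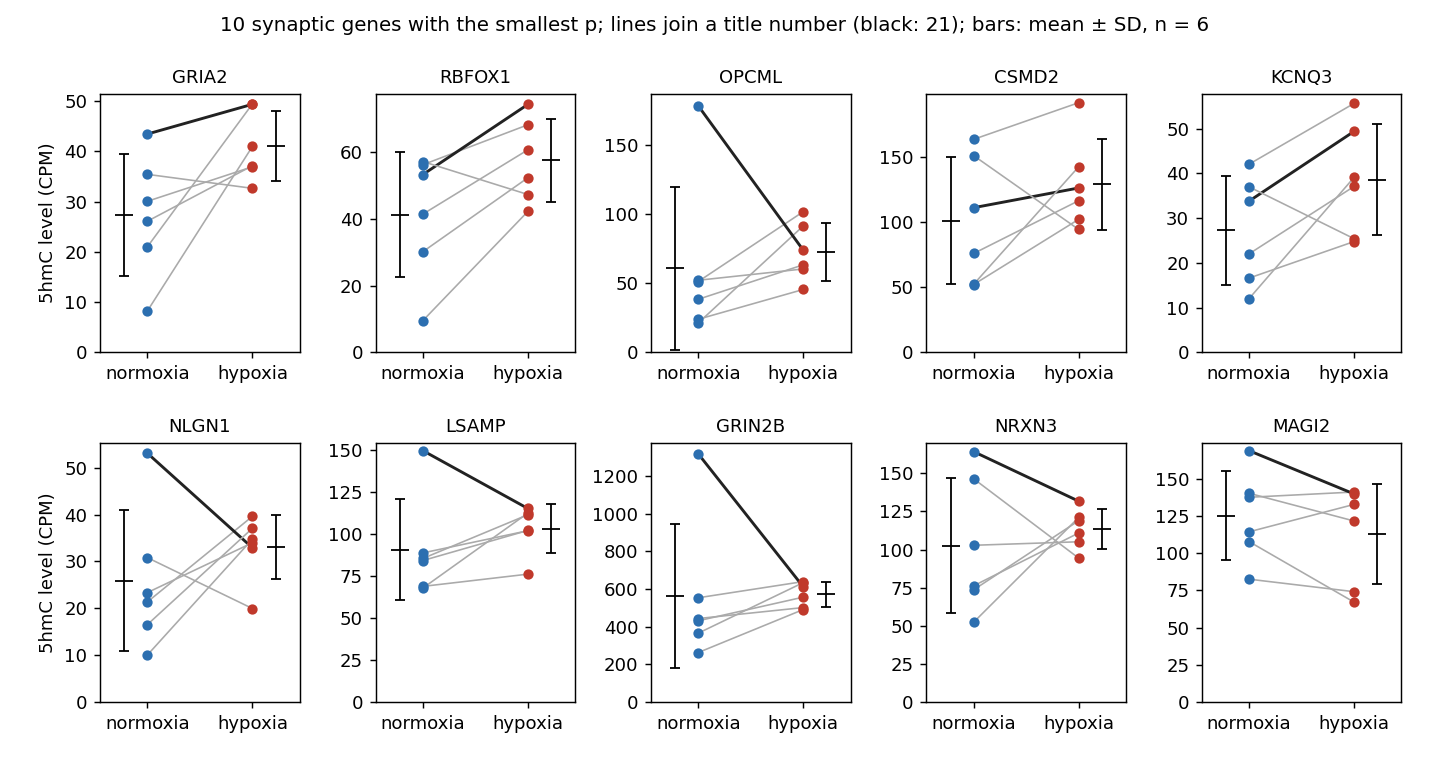
CPM of the 10 synaptic genes with the smallest p, with 1 point per library, lines joining the libraries of a title number (black for 21) and bars for the mean ± SD of 6 libraries. For GRIA2, OPCML, NLGN1, LSAMP, GRIN2B, NRXN3 and MAGI2 the highest normoxia point is number 21, and in all 10 panels the groups overlap.

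Across the 25 genes, 7 had the hypoxia library higher in 5 or 6 of 6 numbers, namely RBFOX1, OPCML, LSAMP, CSMD2, GRIN2B, GRIA2 and KCNQ3, beside 11.7% of all tested genes; 0 were higher in 6 of 6, as 1.64% of all were. The exception was number 4 for RBFOX1, CSMD2, GRIA2 and KCNQ3, and number 21 for OPCML, LSAMP and GRIN2B. OPCML, LSAMP and GRIN2B were higher in all 5 numbers other than 21, beside 4.54% of all tested genes.

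The lean was larger without number 21. In the blocked fit without its 2 libraries, 22 of the 25 genes had a positive log2 fold change and the median was 0.31. Over all tested genes it was 49.5% and a median of -0.0041. That fit tested 27 synaptic genes, and 24 of the 27 were positive with a median of 0.29. The p-values that follow were read for the 25 only. Still 0 of 25 passed, beside 0.0986% of all tested genes, and 3 had an unadjusted p under 0.05 (GRIA2, OPCML and GRIN2B, all higher in hypoxia), beside 10.1%, or 4.64% in that direction. Single libraries were also left out of the fit without the block. Omitting normoxia 21 gave 22 positive genes and a median of 0.29, beside 47.6% positive over all tested genes. Omitting normoxia 49 gave 11 and a median of -0.03, beside 43.6%. Leaving out another number from the blocked fit left 24 or 25 of these 25 genes in the test. Their medians were 0.05 (number 110), 0.21 (16), 0.08 (33), 0.09 (49) and 0.11 (4). Without number 4, 4 of 24 had an unadjusted p under 0.05 in edgeR's test, beside 1249 of 11680 tested genes. Without number 110, 16, 33 or 49 there were 0.

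**Figure D4:**
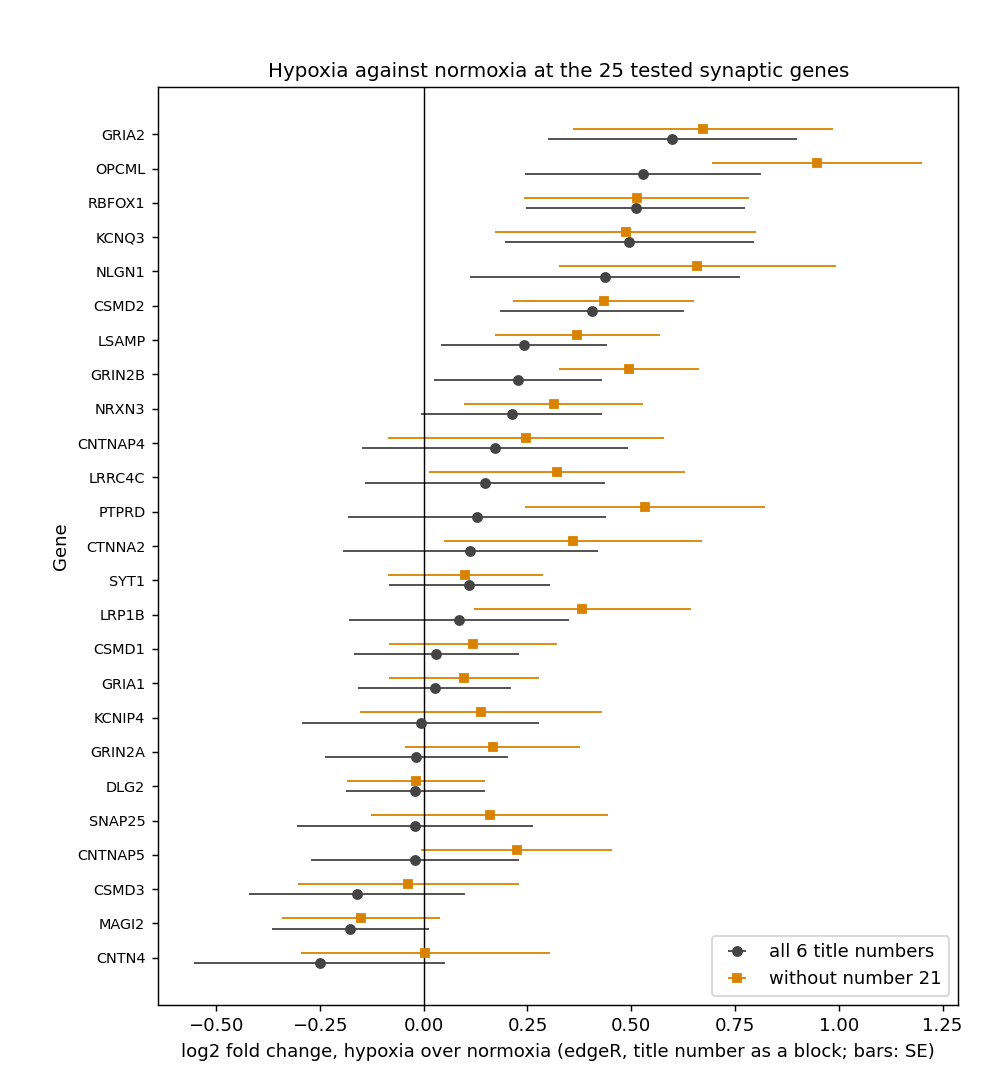
Log2 fold change of each tested synaptic gene with its SE, from the fit with the title number as a block, with all 6 numbers (circles) and without number 21 (squares). The squares lie to the right of the circles for most genes, with the widest shifts for OPCML (0.53 to 0.95) and PTPRD (0.13 to 0.53), while DLG2 and SYT1 stay in place.

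In normoxia 21, 18 of the 25 genes had a CPM above the range of the other 5 normoxia libraries and 0 had one below it, beside 30.2% above and 26.6% below over all tested genes. The median ratio to the other normoxia libraries' median was 1.97 for the 25 genes and 1.02 for all tested genes. The genes differed among themselves. PTPRD had a ratio of 5.93, OPCML 4.64, LRP1B 4.53, CNTN4 3.33 and GRIN2B 3.06. SYT1 (0.741) and DLG2 (0.865), which have many reads, were under 1, so the library's excess was not shared by all the genes. Per read in the whole table, which leaves the library's low gene share out of the scaling, 7 of the 25 genes lay above the other normoxia libraries and 2 below, beside 8.83% and 54.2% of all tested genes. The median ratio was then 1.13 for the 25 genes and 0.579 for all tested genes, with PTPRD at 3.11 and GRIN2B at 1.78. The part of the library's wide peaks in these values was not tested.

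The summed reads gave a different picture on 2 denominators. As a share of gene reads, the 35 genes took 0.233 to 0.268% in hypoxia and 0.175 to 0.341% in normoxia, highest in normoxia 21 and lowest in normoxia 49, with a coefficient of variation of 17.7% over the 12 libraries. As a share of all reads in the table, they took 0.00561 to 0.00605% in hypoxia and 0.00502 to 0.00602% in normoxia, with a coefficient of variation of 6.73%, and normoxia 21 (0.00578%) lay inside the range of the other normoxia libraries. Of the 9 other gene lists read, 4 were also more even on all reads, among them other synaptic genes (9.01% on gene reads, 8.04% on all reads) and neuron markers (17.2% and 14.3%). The other 5 were less even, among them long genes outside the synapse (5.37% and 12.6%) and 15 stromal markers (21.2% and 30.2%). The stromal markers hold surface proteins such as THY1 and ENG and collagen genes such as COL3A1. Normoxia 21 was the stromal markers' lowest library on both denominators. With all reads as the scaling, an alternative chosen after the data were seen, the 25 genes had a median of 0.14 with 18 positive, and 0 passed. All tested genes had a median of -0.02 on that scaling, with 47.4% positive. Without number 21 on that scaling the median of the 25 genes was 0.22 with 20 positive, beside -0.10 and 36.7% positive over all tested genes.

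**Figure D5:**
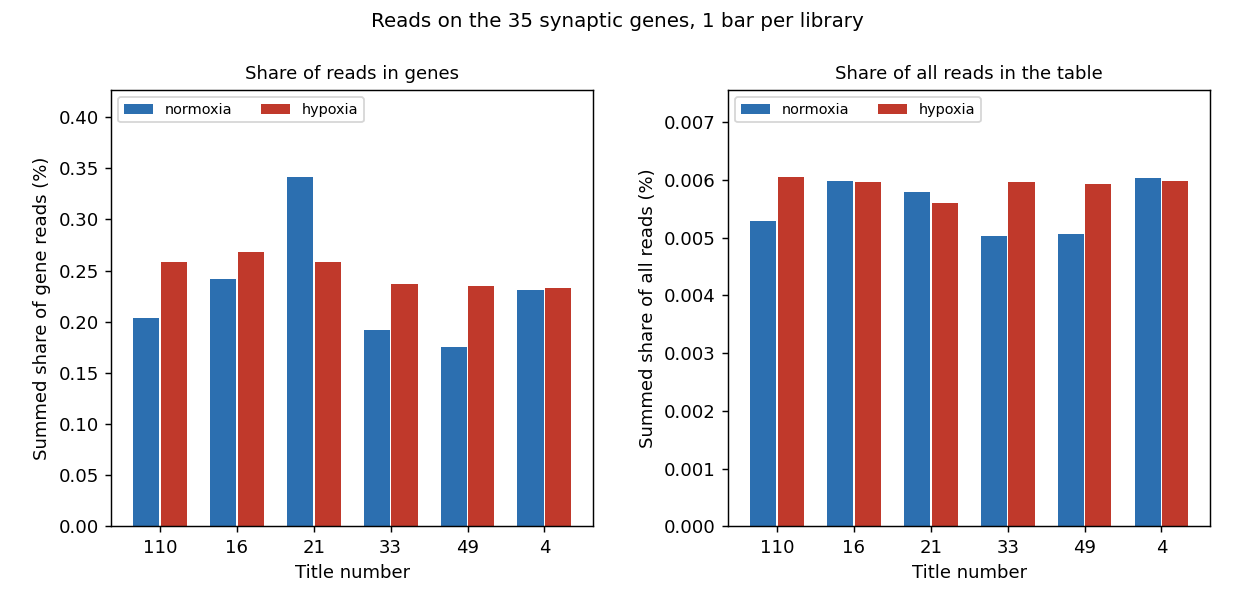
Summed reads on the 35 synaptic genes in each library, as a percent of reads in genes (left) and of all reads in the table (right), by title number. On the left the normoxia 21 bar is the tallest at 0.341%; on the right all bars lie between 0.00502 and 0.00605%.

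Other genes of the synapse were read from a list of 131, all in the tables and 93 of them tested. None passed (0 of 93), 50 were above 0 and 43 below, and the median was 0.03. At an unadjusted p under 0.05 there were 5. Among those with the smallest p were SYN1, a synapsin that tethers vesicles (log2 fold change 0.61 ± 0.212 SE, edgeR adjusted p 0.539), GABRA4 (-0.48 ± 0.198) and SHANK3, a postsynaptic scaffold (0.55 ± 0.233), both of the latter with an adjusted p of 0.646. In normoxia 21, 46 of the 93 lay above the range of the other normoxia libraries and 13 below, with a median CPM ratio of 1.35; on all reads 11 lay above and 37 below, with a median ratio of 0.784. Without number 21, 62 of 91 were above 0 with a median of 0.10.

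A list of 50 long genes outside the synapse, among them DMD, FHIT and WWOX, had 47 tested, 0 passed, 0 with an unadjusted p under 0.05, 19 above 0 and a median of -0.06. In normoxia 21 their median CPM ratio was 1.42, with 21 above and 3 below the other normoxia libraries; on all reads it was 0.747, with 7 above and 20 below. Without number 21 their median log2 fold change was 0.02. COL4A2 (-0.37), FTO (0.53), SMYD3 (-0.43) and FOXP1 (-0.25) had the smallest p. No test compared either list with the 25 genes.

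Marker lists of cell types also held 0 genes that passed edgeR's test, with an unadjusted p under 0.05 in 2 stromal markers, 1 adipocyte, 1 immune and 1 epithelial marker. Neuron markers had 6 of 8 tested genes above 0, with log2 fold changes of 0.48 ± 0.260 (SE) for NEFM, a neurofilament, 0.36 ± 0.204 for NCAM1, -0.35 ± 0.263 for MAP2 and 0.30 ± 0.298 for ENO2. Their 15 genes took 0.0435 to 0.0555% of gene reads in hypoxia and 0.0313 to 0.0554% in normoxia, highest there in normoxia 21. The stromal markers took 0.115 to 0.178% in hypoxia and 0.108 to 0.228% in normoxia. The part of these cells' DNA in the values above was not tested. Glia and Schwann cell markers had 2 of 5 above 0, stromal markers 4 of 13 and adipocyte markers 2 of 3. Endothelial markers had 6 of 7 above 0, immune markers 5 of 6 and epithelial markers 3 of 4. S100B, a glial marker, CLDN5, an endothelial one, and GRIN1 of the other synaptic genes had 0 reads in all libraries. Of all 27339 genes, 2002 had 0 reads in all libraries.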

How the data were processed

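5hmC-enriched DNA from 12 libraries was analysed; the input sample has no group and was not analysed here. Per the submitters' processing notes, Bowtie2, MACS2, Picard, HTSeq and edgeR were used, without versions. The authors deposited raw read counts per gene symbol and MACS2 peak lists, whose fold enrichment (a ratio) was not used here; only peak numbers and widths were. For build, annotation, counted feature type and strand setting the sources used here give nothing. Of all reads, 88.0 to 93.0% fell outside any feature, and it is not known whether introns were counted; DNA reads cannot separate overlapping genes. No sequence table or gene length of a known build was used, and the word long rests on background knowledge. Summary rows without a gene did not enter library sizes.

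All genes were fitted with edgeR 4.0.16 in R 4.3.3 (filterByExpr, minimum count 10, total 15, by group; TMM; glmQLFit and glmQLFTest; adjusted p threshold 0.05), with the title number as a block. Each SE is the size of the log2 fold change divided by the square root of its F statistic. CPM are computed here on TMM-adjusted reads in tested genes; differences within numbers add 0.5 reads. The pairing comes from the numbers opening the titles. After removal of group means, libraries sharing a number correlated at 0.136 to 0.478 across genes, all over the 0.1 needed. Only 4 of the hypoxia libraries correlated best with the normoxia library of their own number. The fit was tested on simulated data. Alternatives were no block, other scalings, DESeq2 1.42.0, other filters, left-out libraries and single lanes. Members and gene lists were chosen with earlier results of these data known. The 10 tested genes with the smallest p, and of all 35 genes those with the 3 highest and the 3 lowest totals (the latter untested), were described by library; up to 4 genes per other list were named by smallest p, of which 1 is not reported here. NRXN2, RBFOX3, LRRTM4, GABRG3, CNTN4, LRP1B and PTPRD were also described, after their values were seen. Drawings were made with Python 3.11.15 and matplotlib 3.10.9.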

Additional observations from a re-analysis of the deposited data

Results flagged for a closer look

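Within each group of 6 libraries, the CPM of the 35 synaptic genes and their summed share were checked for a library separated from its nearest neighbour by more than 0.625 of the group's range, 72 groups of values in all. For independent, normally spread values chance alone gives this in about 5% of groups, and 8 values stood apart. These groups share libraries and some rest on few reads, so that rate need not hold for them. For 5 of them the library was normoxia 21, as the highest of its group. OPCML stood there at 179 CPM, with the next library at 52.3. LSAMP stood at 150 CPM, with the next at 88.8. GRIN2B stood at 1318 CPM, with the next at 554, and PTPRD at 155 CPM, with the next at 63.2. SNAP25 stood at 58.0 CPM on 12 reads, with the next at 37.98. In hypoxia, CNTN4 was highest in number 16 at 52.5 CPM (next 32.9), NLGN1 lowest in number 4 at 20.0 CPM (next 32.9) and LSAMP lowest in number 33 at 76.1 CPM (next 102).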

How the results depend on the processing

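In none of the settings tried did any of the 25 synaptic genes pass, and their lowest adjusted p was 0.147 (all reads as scaling, without number 21). With no count filter, no synaptic gene outside the 25 passed either. For genes outside the 25 that entered the test in other settings, p-values were not read. The count of genes called over the whole table was 4, and it was 0 with no replicate block, in lane 7 only and with all reads as scaling, 9 with no count filter, 11 with all reads as scaling and without number 21, and 0 to 12 with a title number or library left out. Of the 25 synaptic genes, 17 had a positive log2 fold change, beside 46.6% of all tested genes. With a mean of 20 reads or more it was 11 of 16 tested, where fewer genes were tested, beside 47.9%. With a number or library left out it was 11 to 22, beside 43.6 to 51.5%. Here and in the ranges that follow, numbers were left out of the blocked fit and single libraries out of the fit without the block. These ranges therefore also hold the effect of dropping the block. The median of 0.11 ranged from -0.03 to 0.31 over the same omissions. The difference in summed share of gene reads, 0.0174 percentage points, ranged from 0.00889 to 0.0376 with a whole title number left out. Of the 25 genes, 8 kept their direction under every planned or added setting, and 17 did not; the cause was not tested. With no replicate block, PTPRD was at -0.013, LRP1B at -0.032 and KCNIP4 at 0.0093. With library size as scaling, SNAP25 was at 0.026, CNTNAP5 at 0.033, GRIN2A at 0.034, KCNIP4 at 0.054 and DLG2 at 0.036. With no count filter, SNAP25 was at 0.00020, CNTNAP5 at 0.00070, GRIN2A at 0.0017 and KCNIP4 at 0.016. With all reads as scaling, KCNIP4 was at 0.028, and without number 21 on that scaling SNAP25 was at 0.058, CNTNAP5 at 0.13, GRIN2A at 0.072, GRIA1 at -0.0022 and KCNIP4 at 0.053. In lane 7 only, SYT1 was at -0.15, LRRC4C at -0.028, LRP1B at -0.21, GRIA1 at -0.065 and CTNNA2 at -0.014. In lane 8 only, SNAP25 was at 0.38, NRXN3 at -0.040, PTPRD at -0.21, CNTNAP5 at 0.58, CSMD1 at -0.16, GRIN2A at 0.046, KCNIP4 at 0.31 and DLG2 at 0.27. With a number or library left out, CNTN4 ranged from -0.52 to 0.0043, CNTNAP4 from -0.038 to 0.35, CNTNAP5 from -0.28 to 0.22, CSMD1 from -0.049 to 0.19, CSMD3 from -0.32 to 0.094, CTNNA2 from -0.10 to 0.36, DLG2 from -0.075 to 0.076, GRIA1 from -0.11 to 0.11, GRIN2A from -0.16 to 0.17, GRIN2B from -0.10 to 0.49, KCNIP4 from -0.11 to 0.23, LRP1B from -0.18 to 0.38, LRRC4C from -0.12 to 0.39, PTPRD from -0.17 to 0.53, SNAP25 from -0.24 to 0.16 and SYT1 from -0.090 to 0.28. At an unadjusted p under 0.05 there were 0 to 4 of these genes over the omissions, beside 170 to 1249 of all tested genes. With library size as scaling there were 2, beside 839 of 11868 tested genes. With no count filter there were 4 of the 25 and no further synaptic gene, beside 1222 of 25337. In lane 7 only there were 3 of the 25, beside 658 of 11537. With all reads as scaling and without number 21 there were 2, beside 1418 of 12165. Counting alone gave a median coefficient of variation of 25.6% over the 35 genes.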
